A study of Homo sapiens with 12 samples.

Results

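The genes of cholesterol and fatty acid synthesis were followed across POLR2A knockdown and a plant nephrotoxin in HK-2, an immortalized line from human proximal tubule. They were 34 genes of the sterol regulatory element-binding protein (SREBP) pathway, taken by name from a table of 35238 genes. All 34 were found, and all 34 passed the filter on low values in every comparison. Bulk polyA RNA sequencing was available for 12 libraries in 4 groups of 3. HK-2 cells received 10 nM of a scrambled duplex (SCR) or of siRNA-B against POLR2A (siB), and in the same step aristolochic acid I (AAI, 25 µM) or its vehicle (DMSO) for 24 hours. The groups were therefore SCR DMSO, SCR AAI, siB DMSO and siB AAI, all from a single cell line with 1 transient duplex for the knockdown. Every group had been transfected, so no group of cells without siRNA was part of the comparisons. The study asked what high POLR2A does in injured tubule cells, and the comparisons below ask how the lipid synthesis genes moved with AAI, with the knockdown, and with both.

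Cells make cholesterol from acetyl-CoA through mevalonate, farnesyl diphosphate, squalene and lanosterol, and fatty acids from acetyl-CoA through malonyl-CoA. Both routes are under the control of the membrane-bound transcription factors SREBP-1 and SREBP-2, which SCAP escorts from the endoplasmic reticulum to the Golgi for cleavage when sterols are low, and which INSIG proteins hold back when sterols are high. The kidney proximal tubule is known mainly as a site of fatty acid oxidation, and its cells also hold this synthetic machinery.

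Levels are given in CPM, reads per gene scaled to a total of 1000000 in every library and recovered from the deposited log10(CPM + 1) values, and the 3 values of a group are always in the order of replicates 1, 2 and 3. Changes are differences of mean log2(CPM + 1), tested with limma in each pair of groups, and a gene passed the test at an adjusted p under 0.05 over all genes tested. SE is limma's moderated standard error with 3 libraries per group. Nothing in the labels states that the 3 libraries of a group came from separate cultures, so the p-values measure only the spread between these libraries. Depth ran from 15844015 to 42805294 reads per library, at which 0 reads allow up to 0.0701 to 0.189 CPM (3 reads, counting error only), far below the lowest value of any of the 34 genes, 3.79 CPM. SCR DMSO replicate 2 lay apart from its group on the second principal component. Among the 34 genes it was the highest library of its group for 16, the lowest for 13 and between the others for 5.

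The knockdown target was checked first. POLR2A, the gene of RPB1, the catalytic subunit of RNA polymerase II, measured 258, 288 and 306 CPM in SCR DMSO and 138, 143 and 139 CPM in siB DMSO. In AAI it measured 673, 719 and 729 CPM in SCR cells and 266, 220.4 and 210.3 CPM in siB cells. Every siB library was below every SCR library of the same treatment, and AAI libraries were above DMSO libraries in both kinds of cell. The siB minus SCR difference was -1.61 (SE 0.15, adjusted p = 5.8e-04) in AAI. In DMSO it was -1.01 (SE 0.13, adjusted p = 0.505), where no gene passed the test, and in the fit of all 4 groups its adjusted p was 0.0271. Of 15 proximal tubule markers, 4 to 7 had a mean above 1 CPM in a group, with a summed level of 132 to 236 CPM over the libraries, and the transporters SLC22A6 and SLC22A8, AQP1 and LRP2 were at or near 0. Epithelial markers summed to 1352 to 2294 CPM over the libraries.

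AAI lowered cholesterol and fatty acid synthesis genes in both kinds of cell. In SCR cells 7 of 34 (20.6%) were lower in AAI than in DMSO past the test and 0 were higher, while 3.36% of the 14228 genes tested were lower and 8.98% higher. In siB cells 27 of 34 (79.4%) were lower and 0 higher, while 21.8% of 14928 genes were lower and 30.4% higher. The list was chosen with earlier results of these data known, so these shares describe it and are no independent test of it. At an unadjusted p under 0.05, 11 genes of the 34 differed in SCR cells and 27 in siB cells, each of them lower in AAI, which is 32.4% and 79.4% of the members beside 27% and 58.5% of all genes in either direction. The fit with voom on recovered reads gave 6 lower and 0 higher in SCR cells, beside 2.84% and 8.27% of all genes. In siB cells it gave 27 lower and 0 higher, beside 21.9% and 29.9% of all genes. The median log2 change of the 34 was -0.43 in SCR cells and -0.65 in siB cells, beside 0.18 and 0.10 over all genes tested. In SCR cells 28 of 34 had a negative change (38.2% of all genes), and in siB cells 32 of 34 (44.1% of all genes). In bulk libraries, fewer cells of a type and less RNA per cell cannot be told apart. Scaling by median-ratio size factors moved the median of all genes by -0.19 in SCR cells and -0.11 in siB cells, and the median of the 34 was then -0.63 and -0.77. The higher genes' share of all calls fell from 72.8% to 56.9% in SCR cells under that scaling, and from 58.2% to 49.5% in siB cells.

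**Figure D1:**
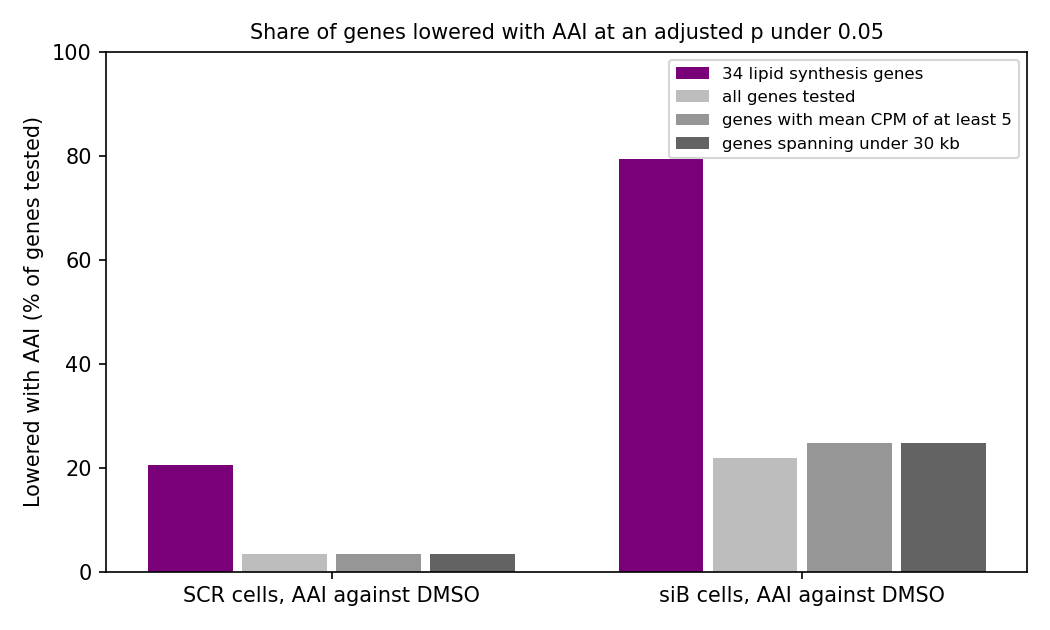
Share of genes lowered with AAI at an adjusted p under 0.05, in % of genes tested, for SCR cells and siB cells (AAI against DMSO, 3 libraries a group). Bars stand for the 34 lipid synthesis genes (20.6% and 79.4%), all genes tested (3.36% and 21.8%), genes at a mean of 5 CPM or more (3.37% and 24.7%) and genes spanning under 30 kb (3.43% and 24.8%).

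The counts were also set against genes of like level and, for the members under 30 kb, of like span. All 34 genes had a mean of at least 5 CPM, and of all genes at that level 3.37% were lowered in SCR cells and 24.7% in siB cells. By GENCODE span, 22 of the 34 were under 30 kb, 9 lay between 30 and 100 kb and 3 were longer. Of the 22 short genes, 6 were lowered in SCR cells and 18 in siB cells, beside 3.43% and 24.8% of all genes under 30 kb. Of the 9 medium genes 1 and 7 were lowered, and of the 3 long genes 0 and 2. The share of all medium or all long genes lowered was not worked out, so these counts are not set against genes of like span. With the further demand of a change of at least 2-fold, 5 of 34 were lowered in SCR cells (2.73% of all genes) and 12 of 34 in siB cells (5.79% of all genes).

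The call in SCR cells depended on single libraries. Without SCR AAI replicate 2 or SCR AAI replicate 3, 2 genes were called (SCD and FADS1). Without SCR DMSO replicate 3 or SCR AAI replicate 1 there were 3, with FDFT1 added, and without SCR DMSO replicate 1 there were 5. Without SCR DMSO replicate 2, the library that lay apart, 9 were called, with HMGCS1 and TM7SF2 added. The lowered share of all genes moved as well, to 8.70% without SCR DMSO replicate 2, 2.40% without SCR DMSO replicate 1, 1.36% without SCR DMSO replicate 3, and 1.15%, 0.857% and 0.829% without SCR AAI replicates 1, 2 and 3. Same-numbered SCR libraries deviated together, and with the replicate number as a block 9 were called, the same 2 genes being added, while the lowered genes among all tested rose from 478 to 911. In siB cells, leaving out 1 library left 22 to 27 genes called, while the lowered share of all genes ran from 16.8% to 22.7%. The 22 came with the 16.8%, without siB DMSO replicate 3. In the fit of all 4 groups, which share 1 estimate of the spread, the lowered genes were 13 in SCR cells and 18 in siB cells, beside 8.60% and 13.7% of all genes. The 7 genes lowered in SCR cells were all among the 27 lowered in siB cells, and 7 genes passed in neither. By role, the genes lowered in siB cells were 3 of 5 regulators, 8 of 8 mevalonate branch genes, 9 of 10 genes from squalene to cholesterol, 2 of 4 transport genes and 5 of 7 fatty acid genes. In SCR cells the counts were 1 of 5, 1 of 8, 3 of 10, 0 of 4 and 2 of 7.

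**Figure D2:**
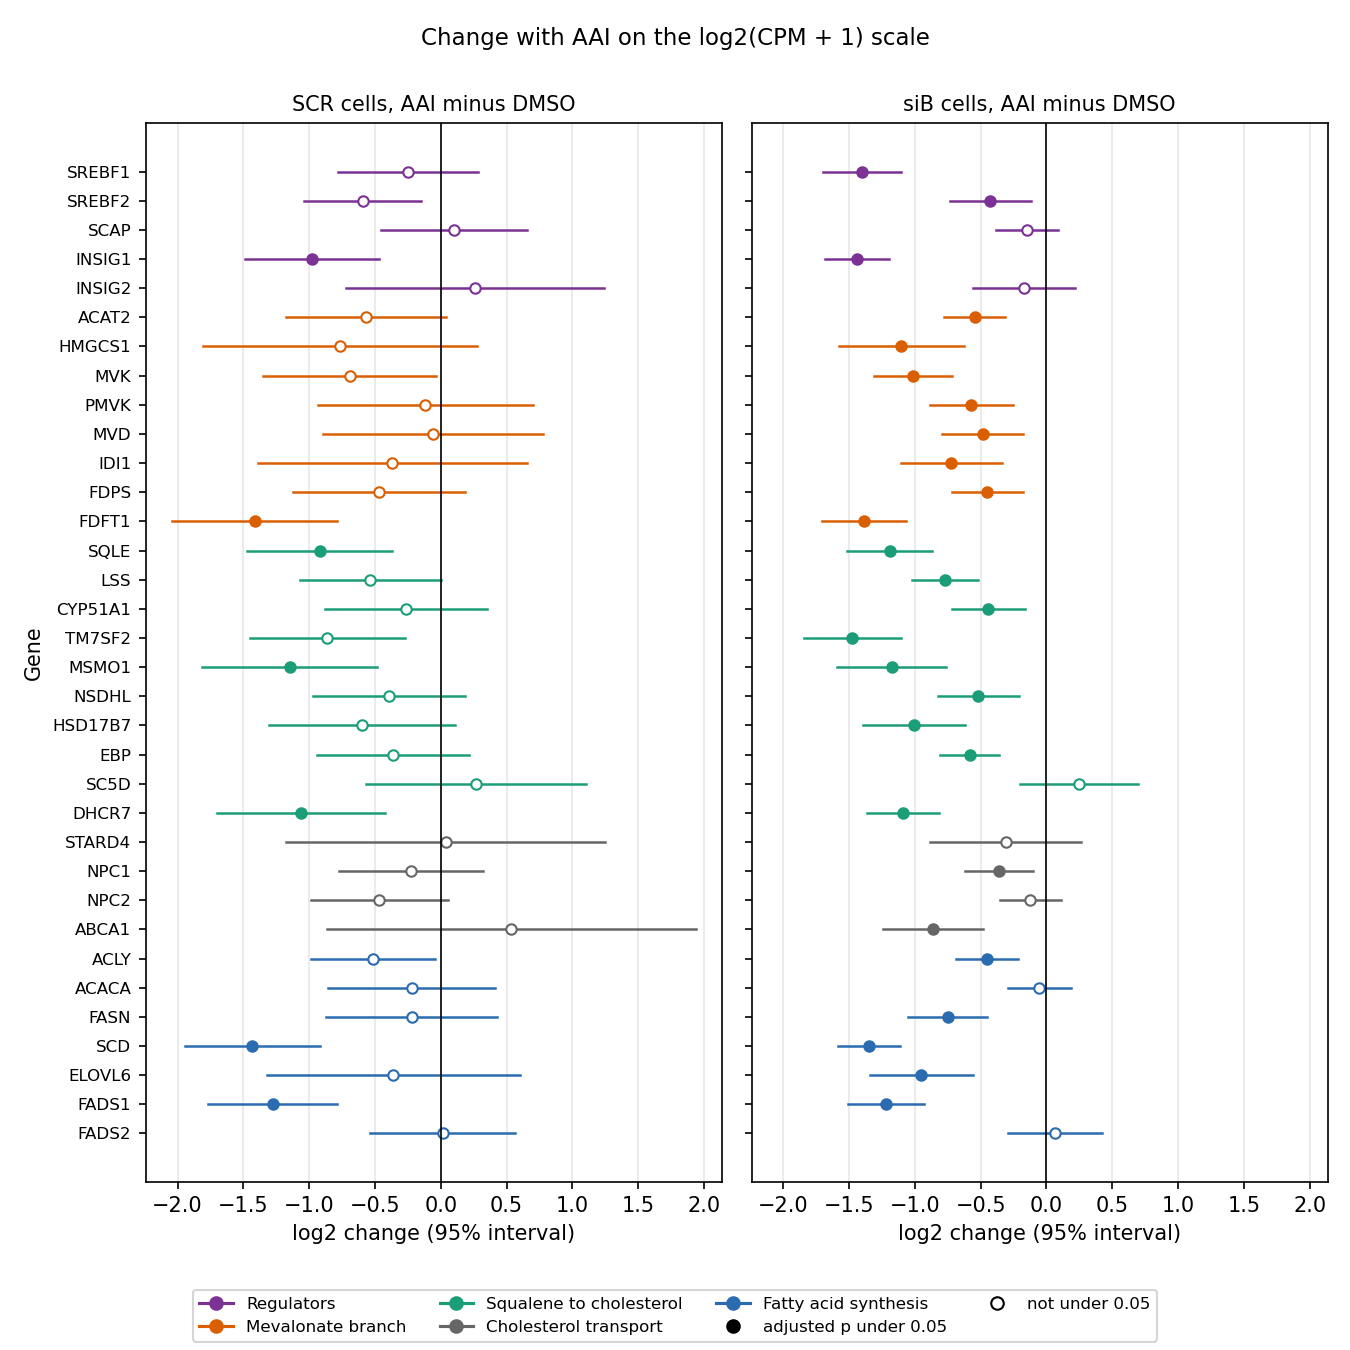
Change with AAI (AAI minus DMSO) on the log2(CPM + 1) scale for each of the 34 genes, ordered and coloured by role, in SCR cells (left) and siB cells (right). Points are limma estimates from 3 against 3 libraries, bars are 95% intervals, and filled points mark an adjusted p under 0.05 (7 genes on the left, 27 on the right).

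Among the regulators, INSIG1 fell with AAI in both kinds of cell, whereas the fall of SREBF1 passed the test in siB cells alone and its difference between the cell kinds is tested further on. INSIG1 (ENSG00000186480.13, chr7:155297776-155310235, plus strand) encodes a sterol-sensing anchor of the SCAP-SREBP complex and is itself a known SREBP target. In SCR cells it measured 142, 154 and 186 CPM in DMSO and 83.1, 67.1 and 93.6 CPM in AAI. The 3 AAI libraries lay below all DMSO libraries, and their mean was 50.6% of the DMSO mean, a log2 change of -0.98 (SE 0.22, adjusted p = 0.0256). In siB cells the values were 167, 160.1 and 151 CPM in DMSO and 57.6, 53.3 and 64.1 CPM in AAI, again without overlap. The AAI mean there was 36.5% of the DMSO mean, a log2 change of -1.44 (SE 0.11, adjusted p = 1.0e-05). In SCR cells the INSIG1 call was lost without SCR DMSO replicate 3 or any of the SCR AAI libraries, with an adjusted p of up to 0.113.

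SREBF1 (ENSG00000072310.18, chr17:17810399-17837002, minus strand) encodes SREBP-1, the form best known for fatty acid synthesis genes. In SCR cells it measured 209, 211 and 273 CPM in DMSO and 155, 233 and 197 CPM in AAI, and the groups overlapped. The log2 change was -0.25 (SE 0.23, adjusted p = 0.528), with a 95% interval of -0.78 to 0.28. In siB cells SREBF1 measured 278, 350.04 and 327 CPM in DMSO and 106, 115 and 139 CPM in AAI. All siB AAI libraries were below all siB DMSO libraries, at 37.7% of the DMSO mean, and the change was -1.40 (SE 0.13, adjusted p = 3.5e-05). It passed the test under each of 15 alternatives in siB cells and under 0 of 15 in SCR cells.

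SREBF2 (ENSG00000198911.13, chr22:41833105-41907306, plus strand) encodes SREBP-2, the form best known for cholesterol synthesis genes. In SCR cells its values were 324, 375 and 301 CPM in DMSO and 237, 217 and 206 CPM in AAI. These did not overlap, yet the change of -0.59 (SE 0.19, adjusted p = 0.0891) did not pass the test. In siB cells SREBF2 measured 323, 366 and 359 CPM in DMSO and 319.9, 221 and 247 CPM in AAI. The highest siB AAI library lay just under the lowest siB DMSO library, and the change was -0.43 (SE 0.14, adjusted p = 0.0271). That call was lost without siB DMSO replicate 2 or 3 or siB AAI replicate 2 or 3, with an adjusted p of up to 0.0937, in the fit of all 4 groups (0.0546) and without the mean-variance trend (0.0557).

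The remaining regulators did not pass the test in either kind of cell. SCAP, the escort protein gene, measured 75.3, 113 and 91.1 CPM in SCR DMSO beside 80.7, 114 and 105 CPM in SCR AAI. Its siB values were 103, 112 and 114 CPM in DMSO beside 92.9, 98.2 and 106 CPM in AAI. Its AAI and DMSO libraries overlapped in both kinds of cell, with changes of 0.10 (SE 0.24, adjusted p = 0.813) in SCR cells and -0.15 (SE 0.10, adjusted p = 0.252) in siB cells. The SCR value turned to -0.10 with median-ratio size factors and to -0.04 without SCR DMSO replicate 1. INSIG2, the less sterol-responsive INSIG, measured 20.7, 6.05 and 12.1 CPM in SCR DMSO and 16.8, 10.7 and 15.5 CPM in SCR AAI. In siB cells it measured 16.1, 11.05 and 12.1 CPM in DMSO and 11.8, 10.8 and 11.6 CPM in AAI. Most of its spread lay in SCR DMSO, where replicate 2 was lowest. The 95% interval of its change was -0.72 to 1.24 in SCR cells and -0.55 to 0.22 in siB cells.

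**Figure D3:**
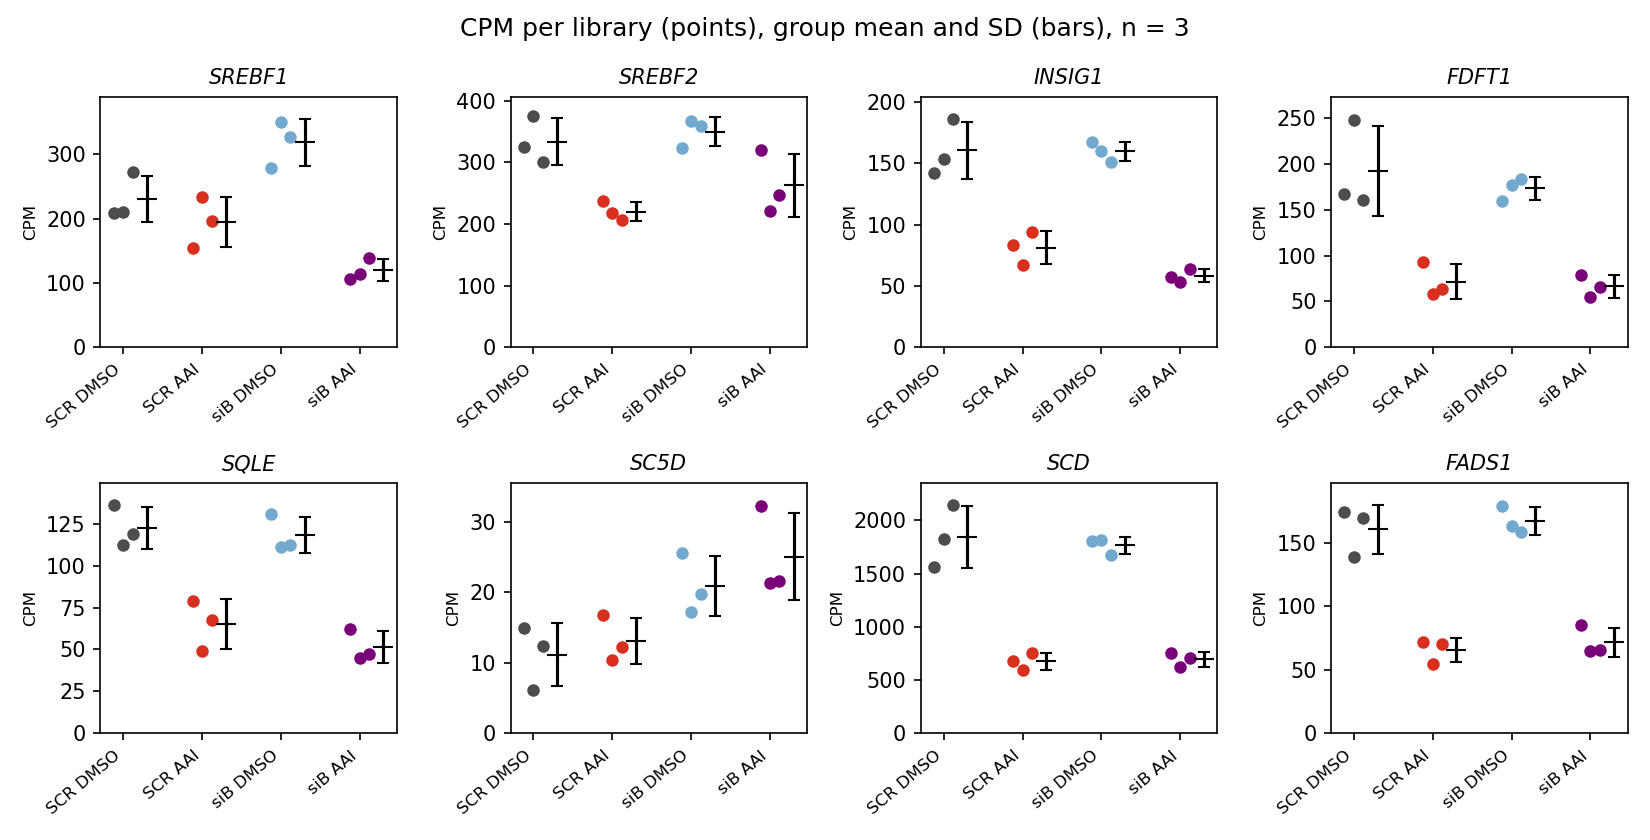
CPM of 8 genes (SREBF1, SREBF2, INSIG1, FDFT1, SQLE, SC5D, SCD and FADS1) in each of the 12 libraries, by group, with the mean and SD of 3 libraries beside the points. SCD, FADS1, FDFT1, SQLE and INSIG1 are lower in every AAI library than in every DMSO library of the same cells, SREBF1 is lowest in siB AAI, and SC5D is higher in siB than in SCR libraries of the same treatment.

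Because SREBP proteins bind sterol regulatory elements in the promoters of these genes, the promoter letters of 3 members are shown. SREBF2 was the 1 member past the test whose window held a classical element, and INSIG1 and SCD had the lowest adjusted p of the members with an entry. Windows run from 250 bases before to 50 bases after the annotated start, from RefSeq on GRCh38.p14, 5′ to 3′ on the gene's strand. Of the 34 genes 30 had an entry, while ACAT2, FDFT1, SQLE and FASN had none and were not searched. Capitals mark matches, on either strand, to TCACNCCAC, the letters of a classical sterol regulatory element, to CACGTG, the E-box, and to CCAAT, the NF-Y box (ATTGG on the other strand). The windows are chr22:41832855-41833154 for SREBF2, chr7:155297628-155297927 for INSIG1 and chr10:100346983-100347282 for SCD, all on the plus strand.
SREBF2: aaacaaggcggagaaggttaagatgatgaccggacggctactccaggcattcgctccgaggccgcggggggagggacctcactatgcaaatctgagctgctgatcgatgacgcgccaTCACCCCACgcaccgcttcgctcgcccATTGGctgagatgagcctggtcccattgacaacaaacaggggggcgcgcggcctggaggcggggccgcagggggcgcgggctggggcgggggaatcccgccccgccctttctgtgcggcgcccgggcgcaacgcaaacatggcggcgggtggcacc
INSIG1: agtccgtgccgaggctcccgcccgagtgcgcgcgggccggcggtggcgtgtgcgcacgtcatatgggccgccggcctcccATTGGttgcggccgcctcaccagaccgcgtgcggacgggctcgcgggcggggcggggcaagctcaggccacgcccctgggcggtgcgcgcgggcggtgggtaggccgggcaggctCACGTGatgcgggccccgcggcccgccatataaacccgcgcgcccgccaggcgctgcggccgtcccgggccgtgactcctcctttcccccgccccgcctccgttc
SCD: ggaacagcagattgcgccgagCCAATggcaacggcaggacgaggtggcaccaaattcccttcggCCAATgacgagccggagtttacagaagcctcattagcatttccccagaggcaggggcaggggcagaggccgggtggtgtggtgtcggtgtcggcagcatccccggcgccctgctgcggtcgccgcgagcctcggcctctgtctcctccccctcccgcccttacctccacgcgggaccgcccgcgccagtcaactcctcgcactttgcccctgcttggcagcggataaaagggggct
The SREBF2 window held TCACCCCAC, which began 133 bases before the start, with 1 CCAAT match after it. INSIG1 held 1 CACGTG and 1 CCAAT, and SCD held 2 CCAAT. The 30 genes had 41 windows between them, of which 2.44% (1 window) held TCACNCCAC, 14.6% CACGTG, 61.0% CCAAT and 90.2% GGGCGG, the Sp1 box. Of all 35116 promoter windows of that length in the RefSeq table, 1.13% held TCACNCCAC, 7.26% CACGTG, 34.6% CCAAT and 45.0% GGGCGG. Matches counted on either strand and whether or not they overlapped another motif. A match is a description of letters and not of binding.

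In the mevalonate branch, which runs from acetyl-CoA to squalene, AAI lowered all 8 genes in siB cells and 1, FDFT1, in SCR cells. The siB changes ran from -1.39 to -0.45 with a median of -0.65, and the SCR changes from -1.42 to -0.06 with a median of -0.52. FDFT1, squalene synthase, which commits farnesyl diphosphate to sterols (ENSG00000079459.14, chr8:11795573-11839395, plus strand), measured 168, 249 and 160.4 CPM in SCR DMSO and 93.3, 58.3 and 63.1 CPM in SCR AAI. No AAI library reached the lowest DMSO library, and the AAI mean was 37.2% of the DMSO mean, a change of -1.42 (SE 0.27, adjusted p = 0.0130). In siB cells FDFT1 measured 159.7, 177 and 183 CPM in DMSO and 78.9, 54.3 and 65.8 CPM in AAI. The groups were again apart, at 38.2% of the DMSO mean and a change of -1.39 (SE 0.14, adjusted p = 5.5e-05). The SCR call was lost without SCR AAI replicate 2 or 3, with an adjusted p of up to 0.0686.

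MVK, mevalonate kinase, measured 33.2, 60.5 and 37.9 CPM in SCR DMSO and 27.8, 28.1 and 22.2 CPM in SCR AAI. The AAI libraries were all lower, but the DMSO spread was wide and the change of -0.69 (SE 0.28, adjusted p = 0.165) did not pass. In siB cells MVK measured 36.5, 39.3 and 45.4 CPM in DMSO and 19, 19.8 and 19.4 CPM in AAI, at 48.03% of the DMSO mean. That fall was clear of the spread, with a change of -1.02 (SE 0.13, adjusted p = 2.1e-04). ACAT2, the cytosolic thiolase that joins 2 acetyl-CoA, measured 98.3, 147 and 106 CPM in SCR DMSO and 97.9, 59.6 and 79.4 CPM in SCR AAI, with the highest AAI library just under the lowest DMSO library. Its siB values were 92.8, 90.1 and 92.3 CPM in DMSO and 67.6, 60.8 and 59.5 CPM in AAI. The change was -0.57 (SE 0.26, adjusted p = 0.214) in SCR cells and -0.55 (SE 0.10, adjusted p = 0.00196) in siB cells.

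HMGCS1, cytosolic HMG-CoA synthase, was picked out after its values were seen, because its call in SCR cells turned on 1 library and on the pairing. It measured 195, 62.5 and 137 CPM in SCR DMSO and 106, 47.8 and 66.1 CPM in SCR AAI. SCR DMSO replicate 2 lay within the AAI range while the other DMSO libraries lay above it. The change was -0.76 (SE 0.45, adjusted p = 0.324), and with the replicate block the adjusted p was 0.0349. In siB cells HMGCS1 measured 179.6, 128 and 127 CPM in DMSO and 91.5, 52.3 and 59.7 CPM in AAI, with a change of -1.10 (SE 0.21, adjusted p = 0.00200) and no overlap. The other mevalonate genes lowered in siB cells were IDI1 (-0.72), PMVK (-0.57), MVD (-0.49) and FDPS (-0.45) on the log2 scale. Their SCR changes, none past the test, were -0.37 for IDI1, -0.12 for PMVK, -0.06 for MVD and -0.47 for FDPS. In the fit of all 4 groups these 4 were no longer past the test in siB cells (adjusted p = 0.130 to 0.226), and with 1 siB library left out the call of MVD was lost at up to 0.0716 and that of FDPS at 0.0549. FDPS has pseudogene copies in the genome, so its reads may be split between them, and its value is uncertain to that extent.

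From squalene to cholesterol, 9 of 10 genes were lowered with AAI in siB cells and 3 of 10 in SCR cells, namely SQLE, MSMO1 and DHCR7. SQLE, squalene epoxidase, a rate-controlling oxygenase of the route (ENSG00000104549.12, chr8:124998497-125022283, plus strand), measured 136, 112 and 119 CPM in SCR DMSO and 78.9, 49.1 and 67.3 CPM in SCR AAI. The AAI libraries lay well below the DMSO libraries, with a change of -0.92 (SE 0.24, adjusted p = 0.0422). In siB cells SQLE measured 130.4, 111 and 113 CPM in DMSO and 62.4, 44.95 and 47.2 CPM in AAI, at 43.6% of the DMSO mean. The groups were apart here too, with a change of -1.19 (SE 0.14, adjusted p = 1.4e-04). The SCR call was lost when any of the SCR libraries but SCR DMSO replicate 2 was left out, with an adjusted p of up to 0.145, with no filter on low values (0.0536) and at a mean of 5 CPM or more (0.0618).

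MSMO1, the C4-methylsterol oxidase, measured 136, 77.2 and 93.6 CPM in SCR DMSO and 56.8, 34.8 and 43.9 CPM in SCR AAI. Its highest AAI library was below its lowest DMSO library, and the change was -1.15 (SE 0.29, adjusted p = 0.0386). In siB cells MSMO1 measured 128, 121 and 114 CPM in DMSO and 73.8, 44.03 and 45.4 CPM in AAI. The siB AAI libraries were also all lower, replicate 1 least so, and the change was -1.18 (SE 0.18, adjusted p = 6.6e-04). DHCR7, the reductase that turns 7-dehydrocholesterol into cholesterol, measured 125, 249 and 176 CPM in SCR DMSO and 85.7, 91.5 and 75.3 CPM in SCR AAI, and the change was -1.06 (SE 0.28, adjusted p = 0.0435). Its siB values were 135, 168 and 172 CPM in DMSO and 78.5, 69.4 and 72.7 CPM in AAI, with a change of -1.09 (SE 0.12, adjusted p = 9.0e-05). The AAI libraries of DHCR7 lay below all DMSO libraries in both kinds of cell, and most of its spread lay among the SCR DMSO libraries. Both calls in SCR cells were lost without SCR DMSO replicate 3 or any of the SCR AAI libraries, and that of MSMO1 also without SCR DMSO replicate 1, with an adjusted p of up to 0.144 for MSMO1 and 0.171 for DHCR7. Both were also lost with no filter on low values (adjusted p = 0.0565 for MSMO1 and 0.0651 for DHCR7) and with genes kept at a mean of 5 CPM or more (0.0586 and 0.0648). That of DHCR7 lay just outside the threshold without limma's mean-variance trend (adjusted p = 0.0508) and with voom (0.0501).

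TM7SF2, a C14 sterol reductase, measured 12.1, 10.7 and 10.6 CPM in SCR DMSO and 6.52, 6.39 and 4.31 CPM in SCR AAI. The groups did not overlap and the AAI mean was 51.6% of the DMSO mean, yet the change of -0.86 (SE 0.26, adjusted p = 0.0673) did not pass, while with the replicate block its adjusted p was 0.0429. The siB values were 12.7, 14.1 and 13.3 CPM in DMSO and 3.79, 3.83 and 4.98 CPM in AAI, with a change of -1.47 (SE 0.16, adjusted p = 9.0e-05). At 31.4% of the DMSO mean, this was the largest fall of the 34 in siB cells. HSD17B7, a sterol 3-ketoreductase, measured 18.2, 17.2 and 11.95 CPM in SCR DMSO and 13.9, 7.84 and 8.93 CPM in SCR AAI, and those groups overlapped. In siB cells it measured 16.3, 17.1 and 18.2 CPM in DMSO and 9.85, 6.51 and 8.09 CPM in AAI, without overlap and with a change of -1.01 (SE 0.17, adjusted p = 0.00110). HSD17B7 has pseudogene copies, and its value is uncertain to that extent.

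LSS, lanosterol synthase, which closes the sterol rings, measured 126, 201 and 139.9 CPM in SCR DMSO and 112, 105 and 98.4 CPM in SCR AAI. The groups were apart but the change of -0.54 (SE 0.23, adjusted p = 0.186) did not pass. In siB cells LSS measured 163, 178 and 179 CPM in DMSO and 110.1, 89.8 and 105 CPM in AAI, with a change of -0.77 (SE 0.11, adjusted p = 4.0e-04) and no overlap. EBP, the sterol isomerase, measured 106, 175 and 124 CPM in SCR DMSO beside 121, 97.2 and 91.2 CPM in SCR AAI. In siB cells it measured 119, 130.04 and 134 CPM in DMSO beside 86.3, 81.7 and 86.2 CPM in AAI. EBP overlapped between the SCR groups and not between the siB groups, where its change was -0.58 (SE 0.10, adjusted p = 0.00112). The other calls of this route in siB cells were NSDHL (-0.52, beside -0.39 in SCR cells), a sterol dehydrogenase, and CYP51A1 (-0.44, beside -0.27), lanosterol demethylase. In the fit of all 4 groups neither passed (adjusted p = 0.0518 for NSDHL and 0.117 for CYP51A1), and the call was lost without siB DMSO replicate 3 for NSDHL (0.0540) and without siB AAI replicate 3 for CYP51A1 (0.0511).

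SC5D, the lathosterol desaturase near the end of the route, was the member of the sterol route that AAI did not lower past the test in siB cells. It was picked out after its values were seen. In SCR cells it measured 14.97, 6.19 and 12.4 CPM in DMSO and 16.7, 10.4 and 12.3 CPM in AAI, and in siB cells 25.5, 17.2 and 19.8 CPM in DMSO and 32.2, 21.4 and 21.6 CPM in AAI. AAI and DMSO overlapped in both kinds of cell, with changes of 0.27 (SE 0.36, adjusted p = 0.671) in SCR cells and 0.25 (SE 0.20, adjusted p = 0.326) in siB cells. The 95% interval in siB cells, -0.20 to 0.70, did not reach the falls of SQLE or DHCR7. Without SCR DMSO replicate 2 the SCR change was -0.07.

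Of the cholesterol transport genes, 0 of 4 passed in SCR cells and 2 of 4 were lowered in siB cells. ABCA1, the cholesterol exporter, which was picked out after its values were seen, measured 248, 81.2 and 473 CPM in SCR DMSO and 193, 336 and 449 CPM in SCR AAI. The SCR DMSO libraries were spread from the lowest to the highest value of the gene in SCR cells, and the change of 0.53 (SE 0.61, adjusted p = 0.611) turned to -0.15 without SCR DMSO replicate 2. In siB cells ABCA1 measured 599, 451 and 428 CPM in DMSO and 212, 309.7 and 291 CPM in AAI. All siB AAI libraries were lower, with a change of -0.86 (SE 0.17, adjusted p = 0.00239), which did not pass in the fit of all 4 groups (adjusted p = 0.213). NPC1, which moves cholesterol out of lysosomes, had a change of -0.36 (SE 0.12, adjusted p = 0.0257) in siB cells, and that call was lost without siB DMSO replicate 2 or 3 or siB AAI replicate 1 or 2, with an adjusted p of up to 0.0843, in the fit of all 4 groups (0.149) and without the mean-variance trend (0.0578). Its lysosomal partner NPC2 had -0.12 and the sterol carrier STARD4 -0.31 on the log2 scale in siB cells, and neither passed. In SCR cells the changes were -0.23 for NPC1, -0.47 for NPC2 (adjusted p = 0.232) and 0.04 for STARD4. The SCR groups of NPC2 did not overlap.

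In fatty acid synthesis, the desaturases SCD and FADS1 were lowered with AAI in both kinds of cell. SCD, stearoyl-CoA desaturase, which makes oleate (ENSG00000099194.6, chr10:100347233-100364826, plus strand), measured 1558, 1821 and 2142 CPM in SCR DMSO and 684, 597 and 757 CPM in SCR AAI. Every AAI library held less than the lowest DMSO library, at 36.9% of the DMSO mean and a change of -1.43 (SE 0.22, adjusted p = 0.00488). In siB cells SCD measured 1809, 1815 and 1673 CPM in DMSO and 755, 619.9 and 710.4 CPM in AAI. Here the AAI mean was 39.4% of the DMSO mean and the change was -1.35 (SE 0.11, adjusted p = 1.3e-05). SCD passed the test under each of 15 alternatives in both kinds of cell.

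FADS1, the delta-5 desaturase of long-chain polyunsaturated fatty acids (ENSG00000149485.19, chr11:61799627-61829318, minus strand), measured 174, 138 and 169 CPM in SCR DMSO and 72.2, 54.9 and 69.96 CPM in SCR AAI. The groups were far apart, with a change of -1.28 (SE 0.21, adjusted p = 0.00689). In siB cells FADS1 measured 179, 163 and 158 CPM in DMSO and 84.8, 64.8 and 65.4 CPM in AAI, with a change of -1.22 (SE 0.13, adjusted p = 6.6e-05). It too passed under each of 15 alternatives in both. Its neighbour FADS2, the delta-6 desaturase, overlaps it on the opposite strand and measured 22.9 to 39.9 CPM over all libraries. The FADS2 difference between AAI and DMSO was 0.02 in SCR cells and 0.07 in siB cells on the log2 scale and did not pass, with 95% intervals of -0.54 to 0.57 and -0.29 to 0.42 that did not reach the change of FADS1. Whether the counting used strand is not given in the sources used here, so reads of the 2 genes cannot be told apart where they overlap.

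FASN, the fatty acid synthase itself, measured 718, 1312 and 1114 CPM in SCR DMSO and 728, 1041 and 873 CPM in SCR AAI, and the groups overlapped, with a change of -0.22 (SE 0.28, adjusted p = 0.649). In siB cells FASN measured 1257, 1620.4 and 1556 CPM in DMSO and 932, 753 and 947 CPM in AAI. The siB groups were apart, with a change of -0.75 (SE 0.13, adjusted p = 0.00132). ELOVL6, which extends palmitate, measured 17.1, 6.004 and 15.2 CPM in SCR DMSO and 6.68, 8.43 and 12.4 CPM in SCR AAI, and replicate 2 of SCR DMSO was the lowest of these libraries. In siB cells it measured 17.6, 12.7 and 14.1 CPM in DMSO and 6.75, 8.08 and 6.54 CPM in AAI. The siB AAI libraries were all lower, with a change of -0.95 (SE 0.17, adjusted p = 0.00158). ACLY, ATP citrate lyase, which supplies cytosolic acetyl-CoA, was also lowered in siB cells, with a change of -0.45 (SE 0.10, adjusted p = 0.00569). In SCR cells its groups did not overlap either, and the change of -0.52 (SE 0.20, adjusted p = 0.149) did not pass. For ACACA, acetyl-CoA carboxylase, neither the siB value of -0.06 (SE 0.11, adjusted p = 0.679) nor the SCR value of -0.22 (adjusted p = 0.643) passed.

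**Figure D4:**
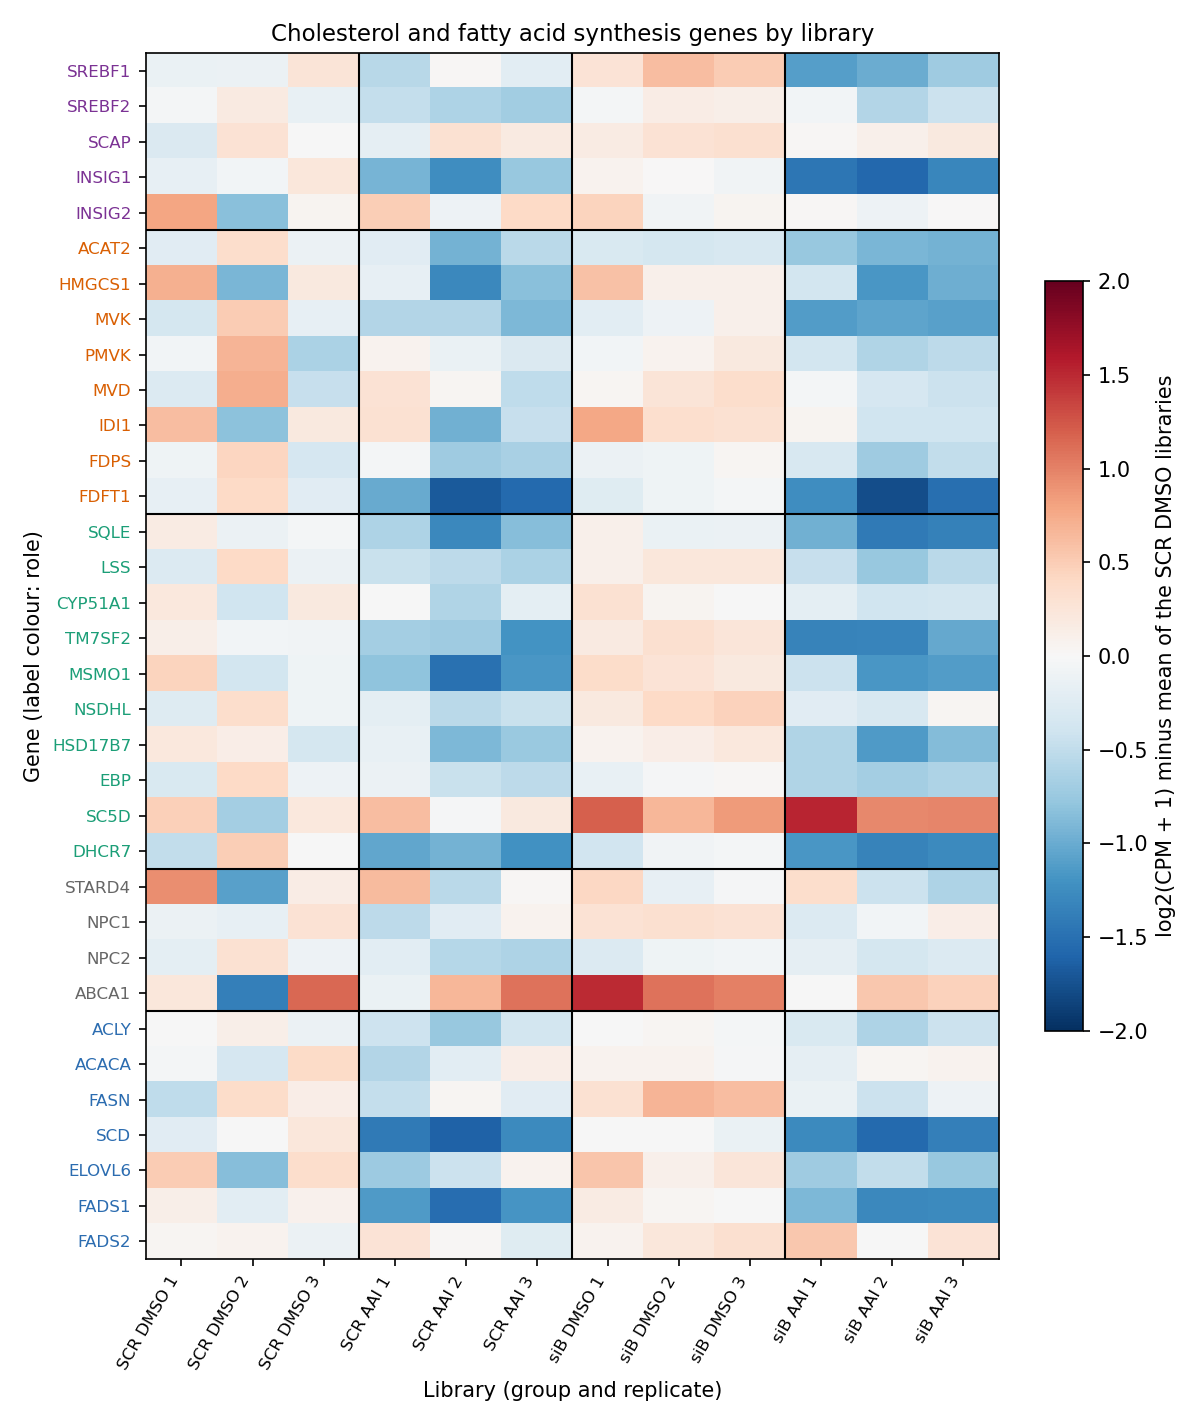
log2(CPM + 1) of each of the 34 genes in each of the 12 libraries, minus the mean of the gene's 3 SCR DMSO libraries. Rows are genes in order of role (label colours), columns are libraries by group, and blue is lower and red higher than the SCR DMSO mean. SCD, FADS1, FDFT1 and INSIG1 are blue in all 6 AAI libraries, and SC5D is red in all 6 siB libraries.

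Levels of different genes are compared only per kb of annotated exon. In SCR DMSO, SCD had the highest mean at 350.9 CPM per kb, followed by ACLY at 118.6 and FASN at 112.5, and SC5D had the lowest at 1.11. In siB AAI the mean of SCD was 132 CPM per kb and still the highest of the 34. FASN was at 94.1 and ACLY at 86.7 CPM per kb in that group. Of the 34 genes, 23 overlap another annotated gene, 21 of them one on the opposite strand, and those reads cannot be assigned with certainty.

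Between siB and SCR cells of the same treatment, no larger share of these genes than of all genes differed past the test. Under AAI, siB cells differed from SCR cells past the test in 2 of 34 genes, with SC5D higher and SREBF1 lower. Of 14946 genes tested, 5.49% were higher and 3.79% lower. The median change of the 34 was -0.07, beside 0.0023 over all genes, and 20 of 34 were negative (49.7% of all genes). Using the values given above, all SREBF1 libraries of siB AAI lay below those of SCR AAI, and the siB minus SCR change was -0.69 (SE 0.18, adjusted p = 0.0350). For SC5D all siB AAI libraries lay above those of SCR AAI, and the change was 0.88 (SE 0.23, adjusted p = 0.0312). Both calls were lost without SCR AAI replicate 3 or any of the siB AAI libraries, with an adjusted p of up to 0.129 for SREBF1 and 0.127 for SC5D. Without SCR AAI replicate 2 the adjusted p was 0.0820 for SREBF1 and 0.0922 for SC5D, while INSIG1 was called (-0.59, adjusted p = 0.0490). With no filter on low values both were lost (adjusted p = 0.0676 for SREBF1 and 0.0669 for SC5D). SC5D was also outside in the fit of all 4 groups (0.109), and SREBF1 with median-ratio size factors (0.0526) and without the mean-variance trend (0.0566).

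Same-numbered libraries of SCR AAI and siB AAI deviated together, though only replicate 1 stood well clear of unlike numbers. With the replicate number as a block INSIG1 and MVK were also lower in siB AAI, which made 3 lowered genes. For INSIG1 the change of -0.46 had an adjusted p of 0.111 without the block and 0.0104 with it. For MVK the change of -0.40 had 0.181 without and 0.0487 with it. Over all genes the block moved the calls from 820 higher and 567 lower to 2268 and 2057. The smallest adjusted p over all genes went from 5.8e-04 to 2.1e-40 with it, at 3 libraries a group. The block was chosen from the departures of these same libraries, so the calls it added are no independent support. For 3 of the genes lowered most by AAI, the siB minus SCR difference under AAI had 95% intervals of -0.32 to 0.39 for SCD, -0.26 to 0.51 for FADS1 and -0.54 to 0.35 for FDFT1.

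**Figure D5:**
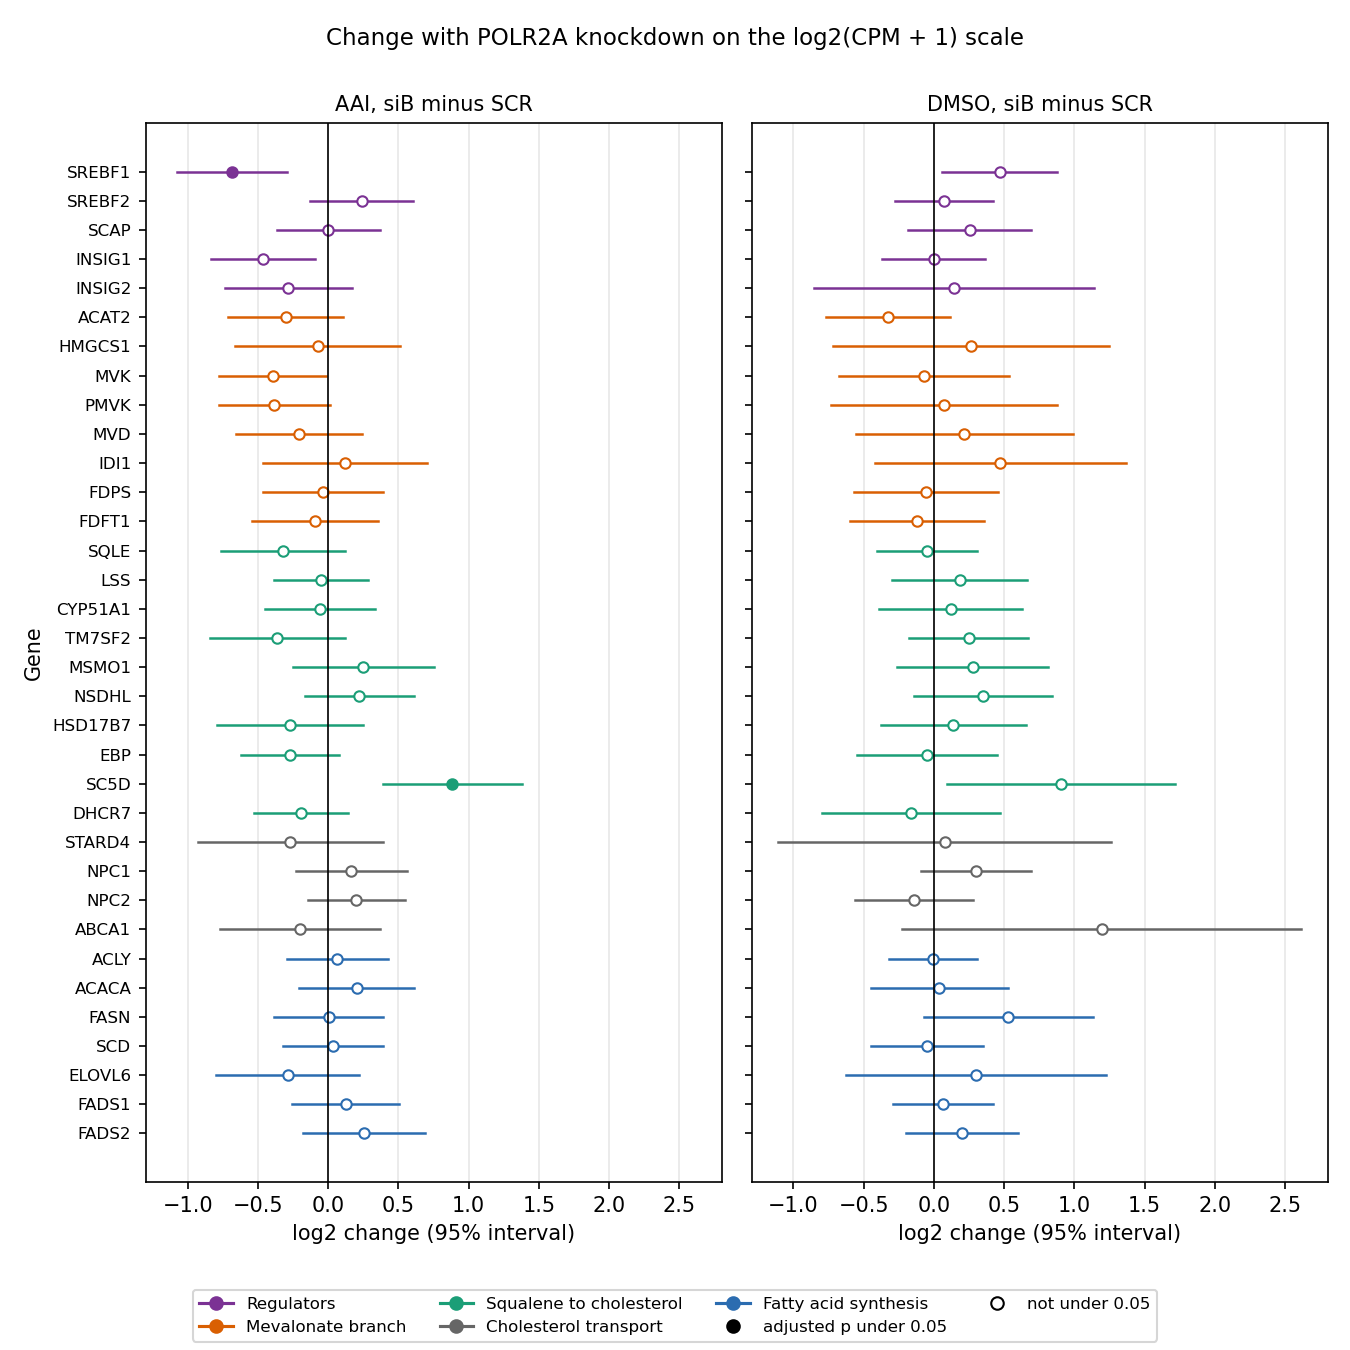
Change with POLR2A knockdown (siB minus SCR) on the log2(CPM + 1) scale for each of the 34 genes, ordered and coloured by role, in AAI (left) and DMSO (right). Points are limma estimates from 3 against 3 libraries, bars are 95% intervals, and filled points mark an adjusted p under 0.05 (SREBF1 and SC5D on the left, none on the right).

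In DMSO, 0 of 34 genes passed the limma test, as did 0% of the 13606 genes tested in either direction (0 higher and 0 lower), with a smallest adjusted p of 0.257 over all genes. The counts were also 0 with voom. Without adjustment, 644 genes had a p under 0.05, of which 2 were among the 34. These were SREBF1, at 0.47 (adjusted p = 0.9998), and SC5D, at 0.90 (adjusted p = 0.9998) on the log2 scale. Both were higher in every siB DMSO library than in every SCR DMSO library. The median change of the 34 was 0.13, beside 0.06 over all genes. Without SCR DMSO replicate 2, 7 of the 34 and 2754 genes in all had an unadjusted p under 0.05, and still 0 passed the test.

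Whether the AAI change differed between siB and SCR cells was tested as the interaction over all 12 libraries. Of the 34 genes 0 passed in limma, and voom also gave 0, there beside 0 of all genes tested. In limma 2 (5.88%) had an unadjusted p under 0.05 (SREBF1 and TM7SF2) beside 13.3% of all genes. Of 15325 genes, 1.46% passed with a higher and 0.157% with a lower change in siB cells. The lowest adjusted p of the 34 was that of SREBF1, where the siB change was lower than the SCR change by 1.15 (SE 0.26, adjusted p = 0.0511), just outside the threshold. Its adjusted p was 0.0296 without SCR DMSO replicate 2 and 0.0265 without SCR AAI replicate 1. Over the other libraries left out in turn it reached 0.169. With the replicate block it was 0.0192, but that block pairs all 4 groups by number. The numbers were not taken to pair siB DMSO with siB AAI or the DMSO groups, so that value rests on a pairing not shown for them. The larger number of lowered genes in siB cells is therefore not shown to be a difference between the cells for any single gene. In siB cells limma's SE was 0.10 to 0.26 for the 34 genes, against 0.19 to 0.61 in SCR cells. For SCD the 95% interval of the difference was -0.40 to 0.56, for FADS1 -0.45 to 0.57 and for FDFT1 -0.65 to 0.71.

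Other genes of the same pathways came from a fixed list, of which 35 are reported and 34 were tested. In SCR cells AAI moved 0 of these 34 past the test, beside 3.36% of all genes lower and 8.98% higher. In siB cells 7 were lower and 5 higher, beside 21.8% of all genes lower and 30.4% higher. Of the 34 genes followed above, 27 were lower and 0 higher there. Both lists were chosen with earlier results of these data known, and the difference between them was not tested. The balance of the other list moved with the setting. With median-ratio size factors it was 11 lower and 3 higher (27.2% and 26.7% of all genes). In the fit of all 4 groups it was 3 lower and 1 higher (13.7% and 20.7% of all genes). Without siB DMSO replicate 1 it was 6 lower and 9 higher (21.3% and 34.8% of all genes). The largest fall in siB cells was that of MID1IP1, a partner of acetyl-CoA carboxylase, at -1.20 (SE 0.12, adjusted p = 5.5e-05). ACSS2, which makes acetyl-CoA from acetate, fell by 0.81 on the log2 scale (adjusted p = 2.6e-04). Also lower were ACSL1 (-0.81), NR1H2 (-0.63), LPCAT3 (-0.61), ELOVL1 (-0.39) and TECR (-0.33). The higher genes were NCEH1 (0.74), a cholesteryl ester hydrolase, GPAM (0.60), which starts glycerolipid synthesis, SOAT1 (0.59), which esterifies cholesterol, ACACB (0.48) and ERLIN1 (0.28). Under AAI the knockdown lowered 2 of the 34 other pathway genes tested, MID1IP1 (-0.66, adjusted p = 0.0356) and NR1H2 (-0.80, adjusted p = 0.0210). It raised 0 of them, beside 3.79% of all genes lower and 5.49% higher. In DMSO it moved 0 of them, beside 0% of all genes.

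Markers of other cell types were summed beside these changes. The markers of other kidney segments ran from 0.0451 to 0.514 CPM in the DMSO libraries, from 0.861 to 2.15 CPM in SCR AAI and from 9.15 to 9.43 CPM in siB AAI, where 4 of 6 had a mean above 1 CPM. Endothelial markers summed to at most 2.495 CPM outside siB AAI and to 3.75 to 5.62 CPM in siB AAI. Fibroblast and pericyte markers ran from 31.1 to 53.7 CPM in the DMSO libraries and from 12.8 to 26.6 CPM in the AAI libraries. That difference lay in COL1A1, with means of 41.9 and 19.5 CPM in SCR DMSO and SCR AAI and of 30.005 and 12.1 CPM in siB DMSO and siB AAI. The means of PDGFRB (1.25 to 1.51 CPM), COL1A2 (0.260 to 1.12 CPM) and DCN (1.75 to 3.19 CPM) did not follow it. Immune markers, mostly CD68, summed to 60.6 to 98.4 CPM with no such order, and CD3E was at 0 in every library. The immune markers with a mean above 1 CPM were 1 of 4 in both DMSO groups and 3 of 4 in both AAI groups. In siB cells PTPRC had means of 0.485 CPM in DMSO and 2.70 CPM in AAI, and CD14 of 0.400 and 2.54 CPM. Epithelial and proximal tubule sums were lower in siB AAI (1352 to 1435 and 167 to 176 CPM) than in siB DMSO (1867 to 2030 and 216 to 236 CPM), without overlap. In SCR cells the AAI and DMSO ranges of both sums overlapped. The siB fall in the proximal tubule sum lay mainly in GGT1 (mean from 175 to 121 CPM) and MIOX (from 31.8 to 15.5 CPM). With AAI, MME and SLC34A1 also had lower means there. The mean of SLC5A2 rose instead, from 5.11 to 16.8 CPM. ANPEP (from 0.110 to 3.08 CPM), SLC13A3 (from 0.0771 to 2.25 CPM) and CUBN (from 0.416 to 1.68 CPM) rose too. Of the 15 proximal tubule markers, those with a siB mean above 1 CPM were 5 without AAI and 7 with it. More genes had reads in siB cells with AAI than without it. Genes above 0 numbered 18983 to 20057 in the siB DMSO libraries and 21555 to 22764 in the siB AAI libraries. With no filter on low values, 23.7% of 25864 genes were higher and 11.8% lower with AAI in siB cells. With the filter these shares were 30.4% and 21.8% of 14928 genes. The part of the marker genes in the changes of the lipid synthesis genes was not tested.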

How the data were processed

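The 34 members and the lists used here were chosen with earlier results of these data known. Titles gave each sample's group and replicate, since the labels' treatment entry reads DMSO for all 12. Reads had been aligned to hg38 and counted per gene with a UCSC annotation on BioJupies, and the authors deposited log10 values, log10(CPM + 1). The aligner and strand setting are not given in the sources used here. CPM undone from this log summed to 1000000 per library, and 100% of the values tested were whole reads within a tolerance of 0.05 reads.

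Tests used limma 3.58.1 under R 4.3.3 (lmFit, eBayes with trend) on log2(CPM + 1), a pseudocount of 1 that understates changes of low genes, each pair of groups fitted alone. A gene entered a fit when 3 or more of its libraries reached 1 CPM. P-values were adjusted by Benjamini-Hochberg over all genes tested. The test was checked on simulated reads, drawn with the same spread setting for every gene and with independent libraries. That check does not cover an outlying library or departures shared by same-numbered libraries. Spans and coordinates are from GENCODE release 44 on hg38, 1-based, and promoter windows from RefSeq.

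Every library's value was printed for the 5 regulators and for the 14 other members with the lowest adjusted p among those past the test. SC5D, ABCA1 and HMGCS1 were added after their values were seen. Of 40 listed other pathway genes, 35 are reported, and 5 are not reported here. Across genes, departures from the own group mean were correlated between libraries with 1 shared number. Between SCR DMSO and SCR AAI this gave 0.42, 0.47 and 0.34, and unlike numbers gave -0.59 to 0.16. Between SCR AAI and siB AAI it gave 0.61, 0.32 and 0.29, and unlike numbers gave -0.44 to 0.22. The numbers were taken to pair these libraries. In AAI only replicate 1 stood well clear, since replicates 2 and 3 crossed gave 0.22 and 0.21. The numbers were not taken to pair siB DMSO with siB AAI (0.21, 0.03 and 0.19). Nor were they for the DMSO groups (0.73, 0.59 and -0.19), where replicate 3 was negative and unlike numbers reached 0.47. The alternatives took a pseudocount of 0.1, dropped the filter or kept genes at a mean of 5 CPM or more, scaled by median-ratio size factors, left AC010970.2 (a transcript at 1887 to 105566 CPM) out of CPM, fitted all 4 groups, added a replicate block, ran voom on recovered reads, dropped the trend, asked for a 2-fold change, or left out each library.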

Additional observations from a re-analysis of the deposited data

How the results depend on the processing

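Of 99 changes of single genes (AAI changes of the 34 and of POLR2A, changes of other pathway genes past the test, and the knockdown and interaction values printed), 16 turned sign under at least 1 alternative, and none of the 16 had passed. Over all of them and all alternatives, 1335 values kept their direction and side of the threshold, 115 lost a call, 21 gained one and 34 had the other sign. With median-ratio size factors the SCR changes of SCAP (-0.099), STARD4 (-0.15) and FADS2 (-0.18) and the siB change of FADS2 (-0.043) were negative. With a library left out, the SCR changes ran from -0.037 to 0.25 for SCAP, -0.16 to 0.65 for INSIG2, -0.44 to 0.23 for PMVK, -0.29 to 0.31 for MVD, -0.074 to 0.50 for SC5D, -0.50 to 0.50 for STARD4, -0.15 to 1.11 for ABCA1 and -0.11 to 0.15 for FADS2. The siB changes ran from -0.10 to 0.024 for ACACA and -0.064 to 0.20 for FADS2. The knockdown differences under AAI ran from -0.055 to 0.12 for SCD, -0.0018 to 0.20 for FADS1 and -0.22 to 0.11 for FDFT1. The interactions ran from -0.032 to 0.20 for SCD, -0.065 to 0.16 for FADS1 and -0.17 to 0.23 for FDFT1, the last being -0.0029 without AC010970.2. The lowered count in SCR cells was 4 with no filter (1.39% of all genes) and 4 at a mean of 5 CPM or more (2.33%). It was 13 with all 4 groups in the fit (8.60%) and 2 to 9 with a library left out (0.829% to 8.70%). In siB cells it was 18 with all 4 groups in the fit (13.7% of all genes) and 12 with the 2-fold limit (5.79%). With a library left out it was 22 to 27 (16.8% to 22.7%). For the knockdown under AAI, the count of higher genes was 0 with no filter (3.38% of all genes) and with all 4 groups (4.85%). With a library left out it was 0 to 1 (1.01% to 8.74%). The count of lower genes was 0 with no filter (1.33%), median-ratio size factors (4.33%) or no trend (3.70%). With a library left out it was 0 to 1 (0.415% to 5.34%), and with the replicate block as pairing 3 (13.8%). Both counts were 0 with the 2-fold limit, where the share of all genes was not worked out. The interaction had 1 lower gene, SREBF1, with no filter (0.246% of all genes) and with the replicate block (0.666%). With a library left out it had 0 to 1 (0.0196% to 3.34%). The block there also covers groups that the numbers were not taken to pair. The replicate block changed no count of the 34 in siB cells with AAI (27 lower, beside 23.6% of all genes) or between the DMSO groups (0, beside 0%). In both, the numbers were not taken to pair the libraries. Causes were not tested. With 3 libraries a group, an SCR change of -0.86 (TM7SF2) was outside the threshold, and it passed under 5 of 15 alternatives.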
